A study of Oryza sativa with 20 samples.

Results

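The genes described are 4 nuclear gene copies for the small subunit of Rubisco and the gene for Rubisco activase, followed in rice (Oryza sativa) seedlings, in their first complete leaf. A further ID listed as such a copy, OS12G0291400, is not among them. Sums over the RBCS copies leave it out unless stated. They were chosen by gene ID: RBCS1 (OS02G0152400), RBCS2 (OS12G0274700), RBCS3 (OS12G0291100), RBCS4 (OS12G0292400) and RCA (OS11G0707000), which are 5 of the 37829 rice gene IDs in the files. The deposited files list IDs without names, so the names are those of the selection; RefSeq gives the symbol RBCS1 to a gene on chromosome 12, not to the chromosome 2 ID called RBCS1 here. All 5 passed the filter on low values.

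RNA was sequenced from 2 tissues, the lamina joint (LJ), the hinge between blade and sheath that sets the leaf angle, and the blade. Each tissue was taken at 5 stages, S1 to S5, which makes 10 groups of 2 libraries each, 20 in all: LJ S1 to LJ S5 and blade S1 to blade S5. The labels describe 1 growth regime in water for all seedlings and give no variety, mutation or treatment. Pieces were cut on days 4, 5, 6, 7 and 9 after germination, and the labels do not tie a stage to a day. Whether the pair of libraries in a group stands for separate plants is not stated; p-values thus rest on a spread that could be technical. Stages run from organogenesis to the setting of the leaf angle, per the series' design text.

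Rubisco fixes CO2 in the Calvin cycle. It is built from large subunits, encoded in the plastid genome and not analysed here, and small subunits, encoded by a family of nuclear RBCS genes whose products are imported into the plastid. Rubisco activase is an ATP-driven chaperone of the stroma that pulls inhibitory sugar phosphates off Rubisco's active sites and so keeps the enzyme working. In rice, the copies of chromosome 12 are the ones used in leaf blades, and the RBCS1 copy is known as one expressed mainly outside blades.

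Levels are in FPKM, fragments per length of transcript, relative to all fragments mapped in a library, so they can be compared between genes; the number of reads behind them is unknown. Summed over rice gene IDs, libraries held 860684 to 1079325 FPKM, and 18265 to 21695 IDs reached 1 FPKM. Blade S4 replicate 2 stood apart: its 50 highest genes held 44.2% of its FPKM, against 15.3% to 27.3% in the other 19 libraries. The LJ regulator LG1 ran from 3.34 to 24.4 FPKM in LJ and from 1.35 to 4.24 FPKM in blade, and DL, a regulator of midrib formation, from 0.463 to 23.1 FPKM in LJ and from 0 to 1.72 FPKM in blade, where 3 libraries were at 0. The summed level of 3 shoot meristem genes (OSH1, OSH15, OSH71) ran from 0.0711 to 26.7 FPKM in LJ, highest at S1, and from 0 to 0.528 FPKM in blade.

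RBCS2 climbed from one of many modest transcripts to the top of the transcriptome. In LJ its replicates 1 and 2 stood at 8.12 and 18.3 FPKM at S1, 37.0 and 32.5 at S2, 401.3 and 138.4 at S3, 4135 and 7837 at S4 and 819.1 and 2987 at S5. In blade they stood at 215.4 and 201.7 FPKM at S1, 756.8 and 679.0 at S2, 2175 and 1428 at S3, 7201 and 28634 at S4 and 3805 and 7054 at S5. The libraries of LJ and blade did not overlap at S1, S2, S3 or S5, where both LJ libraries were the lower ones, and overlapped at S4. How many of all genes lack such overlap was not counted, here or for the members below. Ranked by FPKM among all rice gene IDs, RBCS2 was at places 10660 and 6702 in LJ S1 and at 13 and 7 in LJ S4; in blade S4 it was at places 4 and 2.

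RBCS3 was the most abundant copy early on. Its LJ libraries stood at 32.7 and 109.2 FPKM at S1, 207.1 and 121.1 at S2, 1241 and 475.2 at S3, 3383 and 7031 at S4 and 1356 and 2476 at S5. Its blade libraries stood at 673.5 and 1070 FPKM at S1, 2246 and 1189 at S2, 4550 and 2199 at S3, 5579 and 13094 at S4 and 3616 and 5711 at S5. As with RBCS2, both LJ libraries were below both blade libraries at 4 stages, S4 being the one where they overlapped.

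RBCS4 stood lower than RBCS2 and RBCS3 and was, like them, highest at S4. In LJ it stood at 4.15 and 5.10 FPKM at S1, 3.01 and 3.39 at S2, 56.2 and 45.3 at S3, 357.8 and 637.5 at S4 and 80.7 and 237.1 at S5. In blade it stood at 57.5 and 53.6 FPKM at S1, 84.5 and 79.3 at S2, 168.0 and 292.3 at S3, 672.1 and 835.2 at S4 and 355.9 and 674.3 at S5. RBCS4 was the one member whose LJ libraries lay below its blade libraries at all 5 stages with no overlap.

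RBCS1, the copy of chromosome 2, was lowest at S5 in both tissues by group mean. In LJ it stood at 18.8 and 30.0 FPKM at S1, 17.9 and 62.8 at S2, 57.1 and 95.5 at S3, 450.5 and 31.2 at S4 and 11.7 and 16.4 at S5. In blade it stood at 18.8 and 51.6 FPKM at S1, 19.4 and 88.5 at S2, 19.1 and 82.3 at S3, 96.3 and 2.34 at S4 and 5.48 and 6.20 at S5. Its highest value was in an LJ library, and its tissues overlapped at S1 to S4; at S5 both LJ libraries were above both blade libraries. Replicates differed widely at S4, with a 14.5-fold gap in LJ and a 41.2-fold gap in blade.

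RCA, unlike the small subunit copies of chromosome 12, had its highest group mean at S5 in both tissues. In LJ it stood at 16.8 and 23.5 FPKM at S1, 37.8 and 19.5 at S2, 251.2 and 60.2 at S3, 537.7 and 3921 at S4 and 3944 and 5420 at S5. In blade it stood at 133.6 and 137.7 FPKM at S1, 358.7 and 258.4 at S2, 1081 and 275.7 at S3, 1468 and 10711 at S4 and 9337 and 11570 at S5. Both S5 libraries were the highest RCA libraries of LJ, and in blade S5 replicate 2 was, while S5 replicate 1 was below the high S4 library.

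**Figure D1:**
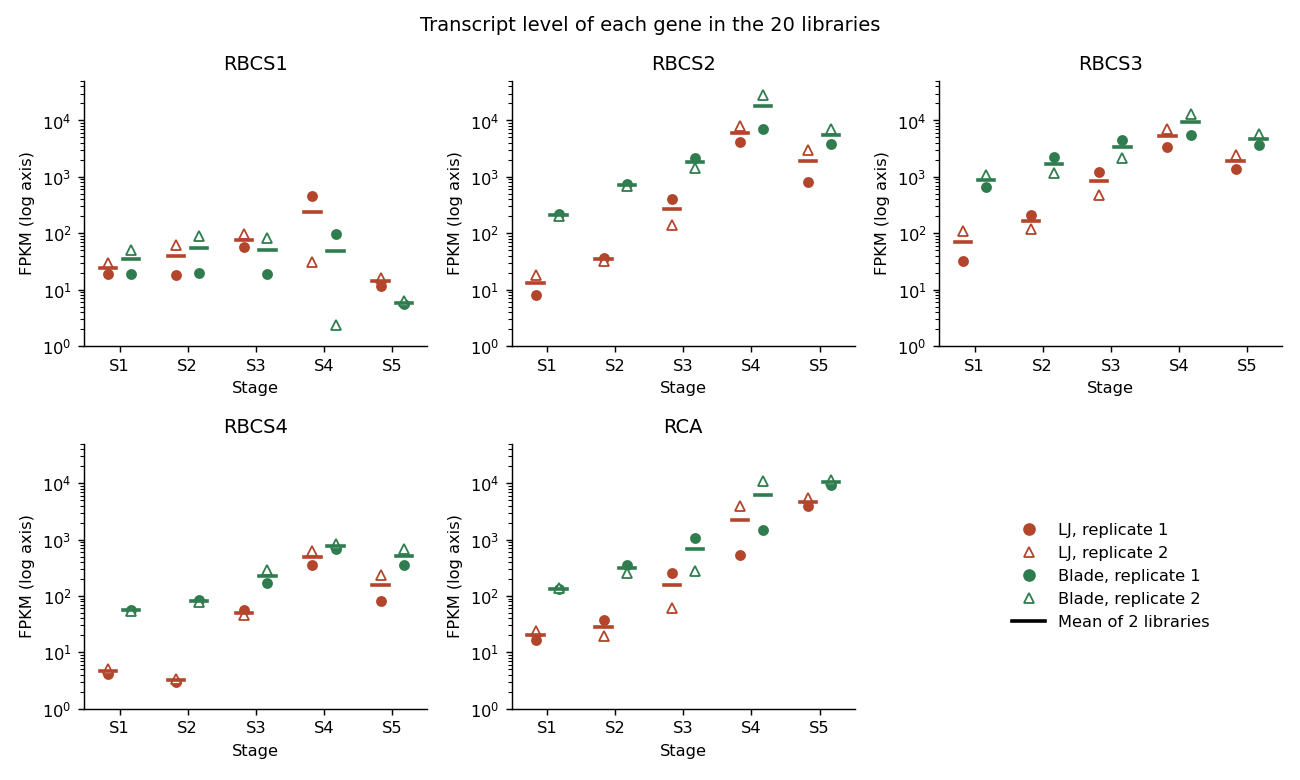
FPKM of each member on a log axis at S1 to S5, 1 panel per gene, with LJ left of blade, 1 point per library and a bar at the mean of 2 libraries. RBCS2, RBCS3 and RBCS4 are highest at S4 in blade, RCA at S5 in blade, and RBCS1 reaches its highest value, 450.5 FPKM, in an LJ library at S4.

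By group mean, the highest group was blade S4 for RBCS2 (17918 ± 15155 FPKM, SD, n = 2), RBCS3 (9336 ± 5314) and RBCS4 (753.7 ± 115.3), blade S5 for RCA (10454 ± 1579) and LJ S4 for RBCS1 (240.8 ± 296.5). The lowest was LJ S1 for RBCS2 (13.2 ± 7.18 FPKM), RBCS3 (70.9 ± 54.1) and RCA (20.2 ± 4.72), LJ S2 for RBCS4 (3.20 ± 0.268) and blade S5 for RBCS1 (5.84 ± 0.505). With the 10 groups of a gene put in order of mean, neighbours had overlapping libraries in 4 of 9 steps for RBCS2, 6 for RBCS3, 5 for RBCS4, 6 for RCA and 7 for RBCS1. The same count over all genes was not made, so these numbers do not set the members apart. The top of the order was not resolved: blade S4 overlapped with LJ S4 for RBCS2 and RBCS3 and with blade S5 for RBCS4, and blade S5 overlapped with blade S4 for RCA.

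The make-up of the small subunit transcripts differed between tissues and stages. RBCS3 was above RBCS2 in all 12 libraries of S1 to S3, at 1.54 to 5.97 times its level, and in 1 of the 8 libraries of S4 and S5. The exception was LJ S5 replicate 1, where RBCS3 was at 1.66 times RBCS2; the ratio was 0.818 and 0.897 in LJ S4 and 0.775 and 0.457 in blade S4. RBCS4 made up 1.14% to 7.3% of the RBCS sum over the 20 libraries.

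RBCS1 made up 29.5% and 18.5% of the RBCS sum in LJ S1, 6.74% and 28.6% in LJ S2, 3.26% and 12.7% in LJ S3, 5.41% and 0.201% in LJ S4 and 0.514% and 0.286% in LJ S5. In blade it made up 1.95% and 3.75% at S1, 0.623% and 4.35% at S2, 0.276% and 2.06% at S3, 0.711% and 0.0055% at S4 and 0.0705% and 0.0461% at S5. The share was highest in both LJ S1 libraries and in 1 of the LJ S2 libraries. Over the 10 libraries of a tissue the share averaged 10.6% ± 11.3 in LJ and 1.38% ± 1.59 in blade (SD). LJ was higher in 5 of 5 stages, a difference of 9.17 percentage points (two-sided exact permutation test of tissue labels within stages, 7776 arrangements, p = 0.00154, adjusted p = 0.00463 over 6 measures). This call was lost without blade S2 replicate 1 (adjusted p = 0.059). A higher share need not be a higher level. By group mean, RBCS1 itself was lower in LJ than in blade at S1 (24.4 against 35.2 FPKM) and S2 (40.3 against 53.95). It was higher in LJ at S3 to S5. The RBCS sum that divides it was 63.7 and 162.6 in the LJ S1 libraries, against 965.2 and 1377 in blade S1. At S2 the sums were 264.9 and 219.7, against 3106 and 2036. Tests of the RBCS1 level are given below.

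RBCS2 was the copy with the smaller share in LJ. It made up 28.2% ± 17.1 of the sum in LJ and 38.4% ± 16.5 in blade, lower in LJ in 5 of 5 stages, a difference of -10.1 percentage points (same exact permutation test, adjusted p = 0.00463). RBCS3 made up 57.4% ± 12.5 in LJ and 56.0% ± 15.5 in blade, and its difference of 1.45 points did not pass (exact permutation test, adjusted p = 0.72). RBCS4 made up 3.76% ± 1.69 in LJ and 4.27% ± 1.65 in blade, and its difference of -0.51 points did not pass either (exact permutation test, adjusted p = 0.69). Reads of near-identical copies can be split between them by the authors' counting, so these shares are uncertain.

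**Figure D2:**
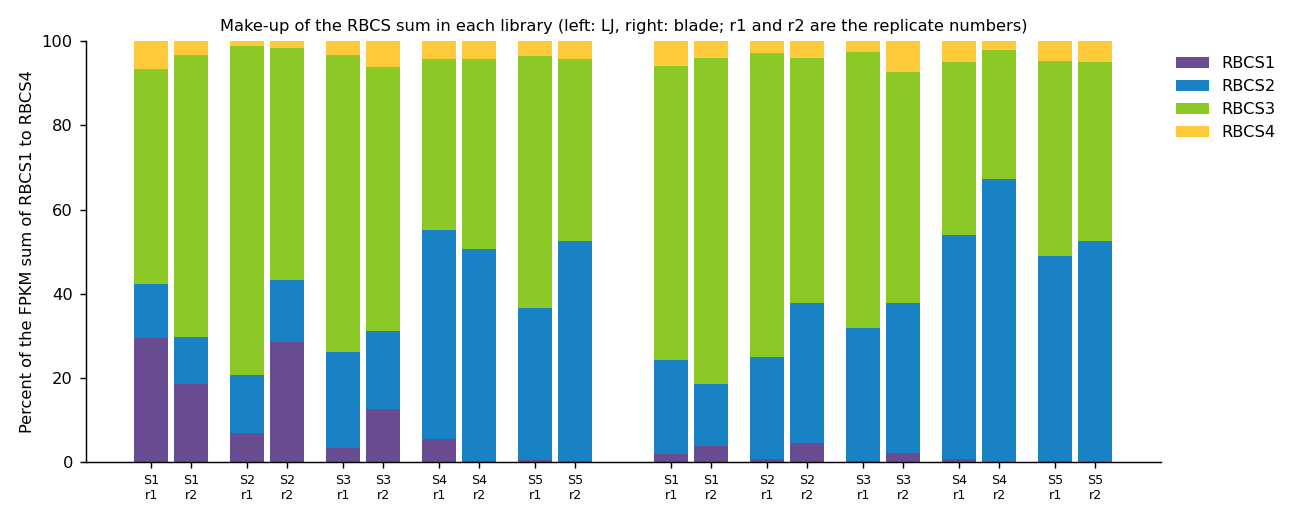
Share of the summed FPKM of the 4 RBCS copies held by each copy, in percent, as a stacked bar per library from S1 to S5, with LJ bars left of blade bars. RBCS1 is visible in LJ at S1 (29.5% and 18.5%) and in LJ S2 replicate 2 (28.6%). RBCS3 is the largest part at S1 to S3, and RBCS2 at S4 in both tissues.

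Shares of all FPKM, or of a library, are here and below shares of the FPKM summed over its rice gene IDs. The 4 RBCS copies held 0.377% ± 0.537 in LJ (lowest 0.0064%, median 0.130%, highest 1.65%) and 0.984% ± 1.22 in blade (lowest 0.0949%, median 0.551%, highest 4.13%). LJ was lower in 5 of 5 stages (difference -0.607 percentage points, exact permutation test, adjusted p = 0.00463). With RCA added, the members held between 0.0081% of a library (LJ S1 replicate 1) and 5.18% (blade S4 replicate 2). The tissue difference was -0.338 points without that last library (exact permutation test, adjusted p = 0.041), and its call was lost without LJ S4 replicate 1 (0.33) or LJ S4 replicate 2 (0.18).

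Activase and small subunits parted at the last stage. The RCA level divided by the RBCS sum was 0.0646 to 0.264 in the 16 libraries of S1 to S4. It was 1.74 and 0.948 in LJ S5 and 1.20 and 0.861 in blade S5, so all 4 S5 libraries lay above the other 16. The S5 minus S4 difference of the log2 ratio, averaged over tissues, was 2.98 (two-sided exact permutation test within tissues, p = 0.0556, the smallest that its 36 arrangements allow); this step was picked after its values were seen. Between tissues the log2 ratio averaged -2.27 ± 1.55 in LJ and -2.40 ± 1.37 in blade, a difference of 0.13 (exact permutation test, adjusted p = 0.72).

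**Figure D3:**
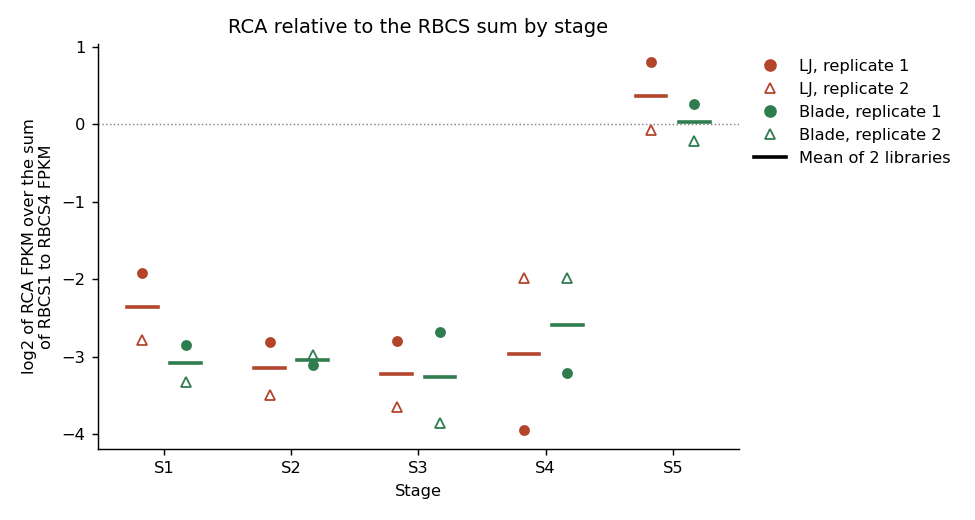
Log2 of RCA FPKM over the summed FPKM of the RBCS copies at S1 to S5, LJ left of blade, 1 point per library. The 4 libraries of S5 lie between -0.22 and 0.80 and the 16 earlier ones between -3.95 and -1.92.

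The first question of the design is how LJ and blade differ. RBCS2, RBCS3, RBCS4 and RCA were lower in LJ, in 10 of 10 pairs of same-numbered LJ and blade libraries each. The share of all genes with that order was not counted. Differences below are of log2(FPKM + 1) with the SE of a limma fit over 10 groups, a gene being called at an adjusted p under 0.05 over 26403 tested genes. As the mean of 5 stages, RBCS2 differed by -2.85 ± 0.32 (adjusted p = 1.7e-05), RBCS3 by -2.26 ± 0.31 (8.1e-05), RBCS4 by -2.44 ± 0.20 (1.6e-06) and RCA by -2.18 ± 0.44 (0.0015). These 4 of 5 members were lower, against 15.1% of all tested genes; the median of the members was -2.26 and that of all genes 0.13. In bulk pieces, fewer green cells and less RNA per cell cannot be told apart.

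RBCS1 was the member with no such call: its difference was 0.81 ± 0.62 (adjusted p = 0.31). It was higher in LJ in 6 of 10 same-numbered pairs, and these were all the pairs of S3, S4 and S5, while it was lower in all 4 pairs of S1 and S2. LJ and blade libraries of the same number deviated together, and in a fit with that pair as a block the same difference of 0.81 had an SE of 0.15 and was called (adjusted p = 0.0012). In the paired fit 37.4% of tested genes were called higher in LJ and 21.6% lower, with 1 and 4 members among them.

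By value, the gap between tissues in RBCS2, RBCS3, RBCS4 and RCA was widest at S1 and S2. At S1, RBCS2 (-3.98 ± 0.72, adjusted p = 0.0017), RBCS3 (-3.80 ± 0.70, 0.0018) and RBCS4 (-3.33 ± 0.46, 1.9e-04) were lower in LJ, 3 of 5 members against 10.6% of tested genes. RCA was at -2.71 ± 0.99 (adjusted p = 0.078), and at the same value with SE 0.18 in the paired fit, which called it (7.1e-06; 4 of 5 members, against 19.7% of genes). At S2 these 4 members were lower, RBCS2 at -4.33 ± 0.72 (adjusted p = 8.0e-04), RBCS3 at -3.36 ± 0.70 (0.0036), RBCS4 at -4.30 ± 0.46 (2.3e-05) and RCA at -3.44 ± 0.99 (0.022), against 12.4% of genes, or 21.7% in the paired fit, which called the same 4 members. RBCS1 was at -0.38 ± 1.39 at S1 and -0.30 ± 1.39 at S2. The RCA call at S2 was lost without any one of the 4 S2 libraries (adjusted p = 0.061 to 0.12).

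From S3 on the gap in these 4 members was smaller by value. At S3, RBCS2 (-2.90 ± 0.72, adjusted p = 0.014) and RBCS4 (-2.11 ± 0.46, 0.0065) were lower in LJ, 2 of 5 members against 5.77% of genes, while RBCS3 was at -2.04 ± 0.70 (0.058) and RCA at -2.14 ± 0.99 (0.15). The paired fit called these 4 lower (adjusted p = 8.2e-05 to 4.4e-04, against 13.9% of genes), with RBCS1 at 0.87 ± 0.34 (0.068). The unpaired RBCS2 call was lost without LJ S3 replicate 2 (adjusted p = 0.17) or blade S3 replicate 1 (0.13), and the RBCS4 call without LJ S3 replicate 2 (0.069) or blade S3 replicate 2 (0.053).

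At S4 no member was called by limma without the block, against 7.17% of genes called in either direction, 0.473% lower and 6.7% higher. So few genes were called lower that the lack of a call does not set the members apart. None had an unadjusted p under 0.05: RBCS1 was at 2.74 ± 1.39, RBCS2 at -1.34 ± 0.72, RBCS3 at -0.81 ± 0.70, RBCS4 at -0.65 ± 0.46 and RCA at -1.45 ± 0.99. The paired fit called 4 of the 5. RBCS1 was higher in LJ (SE 0.34, adjusted p = 7.5e-04, against 15.7% of genes), and RBCS2 (SE 0.36, 0.030), RBCS3 (SE 0.24, 0.040) and RCA (SE 0.18, 7.7e-04) were lower, against 2.59% of genes. RBCS4 was not called there (0.13).

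At S5, RBCS4 was lower in LJ (-1.82 ± 0.46, adjusted p = 0.021), 1 of 5 members against 1.56% of genes, and this call was lost without LJ S5 replicate 1 (0.31) or blade S5 replicate 2 (0.21). RBCS2 was at -1.73 ± 0.72 (0.18), RBCS3 at -1.31 ± 0.70 (0.33), RCA at -1.17 ± 0.99 (0.62) and RBCS1 at 1.12 ± 1.39 (0.78). With the block, RBCS2 (0.0074), RBCS3 (0.0034), RBCS4 (0.0012) and RCA (0.0014) were lower, against 6.12% of genes, and RBCS1 was higher (SE 0.34, adjusted p = 0.041, against 15.2% of genes).

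**Figure D4:**
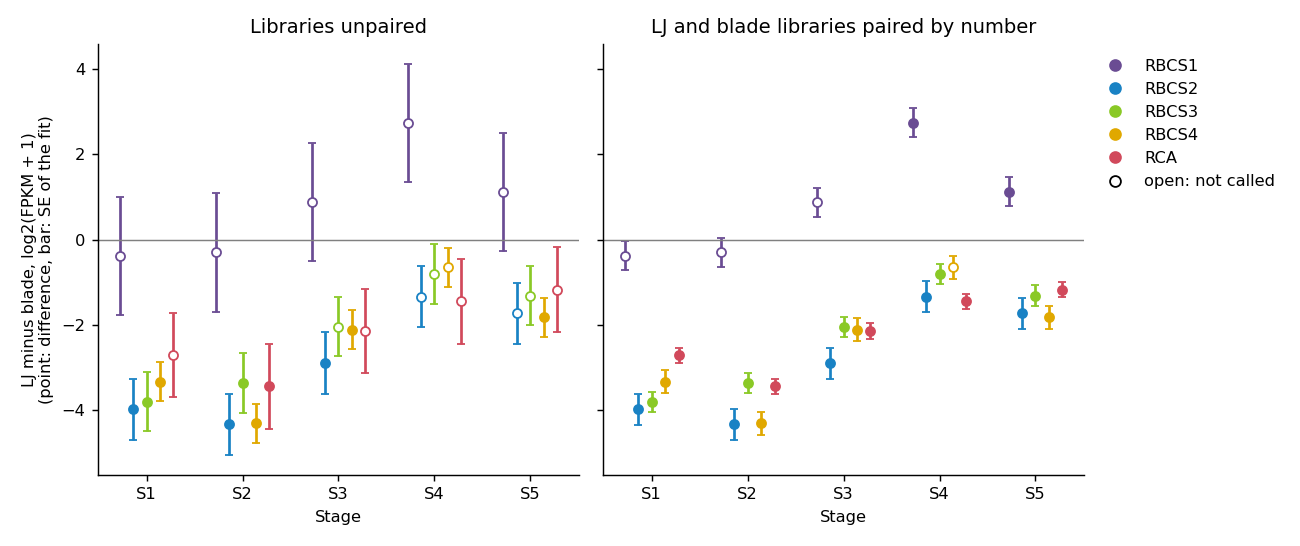
LJ minus blade difference of log2(FPKM + 1) for each member at S1 to S5, with the SE of the fit as bars, from the fit without the pair (first panel) and with it (second panel); filled points are called at an adjusted p under 0.05. RBCS2, RBCS3, RBCS4 and RCA lie below 0 throughout, lowest at S1 and S2, and RBCS1 lies above 0 from S3 on.

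The light-harvesting genes OS01G0600900 and OS09G0346500, named so from background knowledge, were also lower in LJ as the mean of stages. Their summed level ran from 608.2 to 16283 FPKM in LJ and from 1294 to 21874 FPKM in blade, and they differed by -1.52 ± 0.57 (adjusted p = 0.044) and -1.17 ± 0.43 (0.038). Neither was called between tissues at a single stage, or from S1 to S5 in LJ (2.01 ± 1.28, 0.18, and 1.27 ± 0.95, 0.26) or in blade (0.32 ± 1.28, 0.84, and 0.20 ± 0.95, 0.87). The meristem genes were highest in LJ S1, where RBCS2, RBCS3 and RCA were lowest. Their sum was 5.79 and 3.54 FPKM in LJ S5, where RCA had its highest LJ mean. In LJ S2, where RBCS4 was lowest, it was 0.787 and 0.707 FPKM. The part of the light-harvesting or the meristem genes in the results was not tested.

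The second question is how each tissue changed over the stages. In LJ, 4 of 5 members were higher at S5 than at S1: RBCS2 by 6.88 ± 0.72 (adjusted p = 1.3e-06), RBCS3 by 4.91 ± 0.70 (2.3e-05), RBCS4 by 4.64 ± 0.46 (7.0e-07) and RCA by 7.79 ± 0.99 (8.3e-06), against 34.7% of tested genes. In blade the same 4 were higher: RBCS2 by 4.63 ± 0.72 (6.6e-05), RBCS3 by 2.42 ± 0.70 (0.0074), RBCS4 by 3.12 ± 0.46 (3.8e-05) and RCA by 6.25 ± 0.99 (7.6e-05), against 27.2% of genes. RBCS1 was at -0.74 ± 1.39 (0.66) in LJ and -2.24 ± 1.39 (0.17) in blade. The RBCS3 call in blade was lost without blade S1 replicate 1 (0.060) or blade S5 replicate 2 (0.058).

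In LJ, the calls between neighbouring stages fell mostly on the steps between S2 and S4. From S1 to S2 no member was called by limma in LJ, against 1.66% of genes called, or in blade, against 2.78%. At an unadjusted p under 0.05 there were 0 in LJ and 1 in blade, RBCS2. The share of all genes at that unadjusted threshold was not counted, here or below. From S2 to S3 in LJ, RBCS2 (2.73 ± 0.72, adjusted p = 0.014), RBCS3 (2.27 ± 0.70, 0.029) and RBCS4 (3.62 ± 0.46, 7.7e-05) rose, 3 of 5 members against 15.2% of genes, with RCA at 2.14 ± 0.99 (0.14). In blade no member was called over that step by limma, against 10.5% of genes called, and 1 had an unadjusted p under 0.05, RBCS4 at 1.43 ± 0.46. The LJ calls of RBCS2 and RBCS3 were lost without LJ S2 replicate 1 (0.057 for both), LJ S2 replicate 2 (0.072 and 0.17) or LJ S3 replicate 1 (0.18 and 0.28).

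From S3 to S4 in LJ, RBCS2 (4.59 ± 0.72, adjusted p = 1.5e-04), RBCS3 (2.66 ± 0.70, 0.0063), RBCS4 (3.22 ± 0.46, 6.3e-05) and RCA (3.55 ± 0.99, 0.0094) rose, 4 of 5 members against 16.2% of genes. In blade RBCS2 (3.03 ± 0.72, 0.0047), RBCS4 (1.75 ± 0.46, 0.0084) and RCA (2.86 ± 0.99, 0.038) rose, 3 of 5 members against 8.08% of genes. RBCS3 in blade was at 1.43 ± 0.70 (0.13). In LJ the calls of RBCS3 (0.087 and 0.059) and RCA (0.12 and 0.13) were lost without LJ S3 replicate 2 or LJ S4 replicate 2. In blade those of RBCS2 (0.063) and RCA (0.34) were lost without blade S4 replicate 2, that of RCA without blade S3 replicate 2 (0.32) and that of RBCS4 without blade S3 replicate 1 (0.082).

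From S4 to S5, RBCS4 in LJ was the one call: it fell by 1.78 ± 0.46 (adjusted p = 0.011), 1 of 5 members against 9.01% of genes. Its call was lost without LJ S4 replicate 2 (0.087) or LJ S5 replicate 1 (0.17). RBCS2 was at -1.86 ± 0.72 (0.068), RBCS3 at -1.41 ± 0.70 (0.14), RBCS1 at -3.02 ± 1.39 (0.12) and RCA at 1.67 ± 0.99 (0.22) in LJ. In blade no member was called by limma, against 32.7% of genes called, and 0 had an unadjusted p under 0.05. There RBCS2 was at -1.47 ± 0.72, RBCS1 at -1.40 ± 1.39 and RCA at 1.39 ± 0.99. Without blade S4 replicate 1 the last 2 changed sign, to 1.03 for RBCS1 and -0.043 for RCA.

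At S4 the replicates differed in the same way in both tissues. Replicate 1 minus replicate 2 was -2.86 in LJ and -2.87 in blade for RCA, and 3.81 in LJ and 4.86 in blade for RBCS1, on the log2(FPKM + 1) scale. The summed light-harvesting genes were, like RCA, higher in replicate 2, at 2277 and 16283 FPKM in LJ S4 and 3256 and 21874 FPKM in blade S4, in replicates 1 and 2. Over all stages, the difference between replicates 1 and 2 had the same direction in LJ and blade in 21 of 25 cases: in 5 of 5 stages for RBCS1, RBCS3 and RCA, 4 of 5 for RBCS2 and 2 of 5 for RBCS4. The labels do not say what a shared number stands for.

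**Figure D5:**
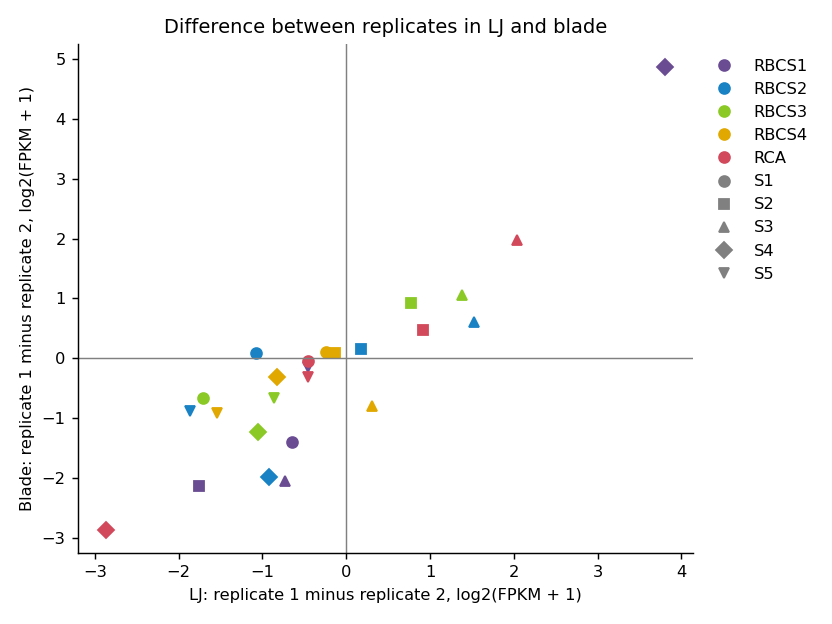
Replicate 1 minus replicate 2 difference of log2(FPKM + 1) in LJ (horizontal axis) and in blade (vertical axis), 1 point per member and stage. Of 25 points, 21 have the same sign on both axes; RBCS1 at S4 lies at 3.81 and 4.86 and RCA at S4 at -2.86 and -2.87.

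Without both S4 libraries numbered 2, a choice made after seeing the data, the step from S4 to S5 had other calls; each S4 group is then 1 library assumed to vary like the rest. RCA was higher at S5 by 3.10 ± 0.81 in LJ (adjusted p = 0.013, against 19.5% of genes) and by 2.82 ± 0.81 in blade (0.021, against 16.7%). RBCS1 was lower at S5, at -4.93 ± 0.98 in LJ (0.0031, against 8.73%) and at -3.83 ± 0.98 in blade (0.012, against 10.8%). RBCS4 in LJ was then at -1.36 ± 0.54 (0.080). In the same fit, RBCS1 was lower at S5 than at S1 in blade, at -2.24 ± 0.80 (0.026, against 37.5% of genes). From S3 to S4, it was higher in LJ by 2.59 ± 0.98 (0.049, against 15.5%), while RCA was no longer called in LJ (2.12 ± 0.81, 0.051) or blade (1.43 ± 0.81, 0.21), nor RBCS2 in blade (2.03 ± 0.76, 0.057).

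The third question is whether LJ and blade changed by different amounts. The S5 minus S1 rise was larger in LJ than in blade by 2.25 ± 1.02 for RBCS2 (adjusted p = 0.18), 2.49 ± 0.98 for RBCS3 (0.12), 1.52 ± 0.65 for RBCS4 (0.15) and 1.54 ± 1.40 for RCA (0.56). RBCS1 fell by value in both tissues, less so in LJ, and its difference of 1.50 ± 1.96 (0.71) is that smaller fall. None passed with limma, 3 had an unadjusted p under 0.05, and 14.6% of tested genes were called in either direction. The paired fit called the difference in change above 0 for all 5 members, against 21.0% of genes: RBCS2 with SE 0.51 (0.0090), RBCS3 with SE 0.34 (4.7e-04), RBCS4 with SE 0.38 (0.015), RCA with SE 0.26 (0.0016) and RBCS1 with SE 0.48 (0.043).

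LJ was also set against blade of the stage before. LJ S2 was lower than blade S1 in RBCS2 (-2.55 ± 0.72, adjusted p = 0.045), RBCS3 (-2.42 ± 0.70, 0.049) and RBCS4 (-3.75 ± 0.46, 1.5e-04), 3 of 5 members against 6.37% of genes. The calls of RBCS2 and RBCS3 lie at the threshold, and each was lost in 12 of 20 fits with 1 library left out. LJ S3 against blade S2 gave no called member by limma, against 1.31% of genes called, with RBCS2 at -1.60 ± 0.72 and RBCS4 at -0.69 ± 0.46. There 1 member had an unadjusted p under 0.05. LJ S4 against blade S3 gave no called member either, against 28.0% of genes called, with RBCS2 at 1.69 ± 0.72 and RBCS4 at 1.10 ± 0.46. There 2 members had an unadjusted p under 0.05. LJ S5 was again lower than blade S4 in RBCS2 (-3.20 ± 0.72, 0.0030), RBCS3 (-2.22 ± 0.70, 0.019) and RBCS4 (-2.43 ± 0.46, 8.9e-04), against 7.57% of genes, while RCA was at 0.22 ± 0.99 (0.89), or at -1.21 without blade S4 replicate 1. The RBCS3 call was lost without LJ S5 replicate 1 (0.14) or blade S4 replicate 2 (0.16), and the RBCS2 call without LJ S5 replicate 1 (0.052).

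Neighbouring gene models bear on the copies. OS12G0274750, whose number differs by 50 from that of RBCS2 and which the tables used here do not name, stood at 0.570 to 1.21 times RBCS2 in the 20 libraries, from 7.32 to 21788 FPKM, with a tissue difference of -3.06 ± 0.30. OS12G0291400, entered in the list as a further RBCS copy, ran from 1.51 to 2799 FPKM. OS12G0291733, also between the numbers of RBCS3 and RBCS4 and named after its values were seen, ran from 8.58 to 11133 FPKM, 3.24 to 6.58 times OS12G0291400. With these 3 chromosome 12 IDs added to the RBCS sum, a choice made after seeing the data, the LJ minus blade difference was 7.34 points in the RBCS1 share (exact permutation test, adjusted p = 0.0069), -5.21 points in the RBCS2 share (0.012) and -1.11 points in the RBCS share of all FPKM (0.0069). OS11G0707050, whose number differs by 50 from that of RCA, ran from 0 to 11.3 FPKM. The sources used here do not say whether counting used strand, and reads of overlapping or near-identical genes cannot be told apart.

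Across the 20 libraries, which share stages and tissues, RBCS2 had a Pearson r of 0.979 with RBCS3, 0.972 with RBCS4 and 0.915 with RCA in log2(FPKM + 1). RBCS1 had -0.459 to -0.108 with the other 4. Outside the members, the IDs most like the mean of RBCS2, RBCS3 and RBCS4 were OS12G0274750 (0.993) and OS03G0267300 (0.986), those most like RCA were OS01G0896500 (0.985) and OS01G0926800 (0.983), and those most like RBCS1 were OS05G0403300 (0.900) and OS02G0586800 (0.897).

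Of 11 IDs listed from background knowledge as other Calvin cycle enzymes, 11 were lower in LJ as the mean of stages, against 15.1% of tested genes, by a median of -1.34, beside -2.44 as the median of RBCS2, RBCS3 and RBCS4. The list ran from OS02G0698000, listed as phosphoribulokinase, which makes the sugar that Rubisco carboxylates (-1.95 ± 0.33), to OS06G0133800, listed as transketolase (-0.79 ± 0.20). At single stages 5 were lower at S1 (against 10.6% of tested genes), 8 at S2 (12.4%), 3 at S3 (5.77%) and 0 at S4 (0.473%) and S5 (1.56%), and none was called higher. From S1 to S5, 9 were higher in LJ (median 2.25, against 34.7% of tested genes called higher) and 8 in blade (median 2.08, against 27.2%), and none was called lower; OS02G0698000 changed by 5.40 ± 0.75 in LJ and OS09G0535000, listed as triose phosphate isomerase, was at 0.46 ± 0.53 there. The files do not pair these IDs with names, and of the list only OS03G0267300 was matched to a RefSeq name, fructose bisphosphatase. The match was by relative place along the chromosome, within 2 percent of its genes (1.66), and not every listed name was searched. By that check RBCS2, RBCS3 and RBCS4 lay 2.62, 3.05 and 3.37 percent from the RefSeq genes searched for, outside the limit, and RCA 0.052 percent.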

How the data were processed

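Gene-level RNA was measured by sequencing in 20 libraries, 2 per tissue and stage; groups and replicate numbers come from the sample titles. TRIzol extraction and library preparation with NEBNext Ultra reagents are stated per the labels' protocols. The deposited values are FPKM made by the authors; TopHat2 2.1.1, Cufflinks 2.2.1, Trimmomatic 0.36 and CASAVA 1.8, with build IRGSP-1.0, are listed in the submitters' processing notes. Strandedness and read numbers are not given in the sources used here, so no counting intervals are given.

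Each library lists 82632 features; the 44803 that are not rice gene IDs were left out. Genes that reached 1 FPKM in 2 or more libraries (26403) were tested on log2(FPKM + 1), which understates changes of low genes, with limma 3.58.1 in R 4.3.3: 10 groups in 1 fit, a mean-variance trend, 10 residual degrees of freedom and Benjamini-Hochberg adjustment over all tested genes. Comparisons of the stages share libraries. The self-test on simulated data ran before the fits. Ratios and shares were tested between tissues with exact permutation tests within stages (Python 3.11.15, numpy 2.4.6). The S5 minus S4 difference of the log2 ratio was permuted within tissues.

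Across genes, the difference between replicates 1 and 2 in LJ correlated with that in blade at 0.478 (S1), 0.213 (S2), 0.663 (S3), 0.774 (S4) and 0.516 (S5). Libraries of the same number thus deviated together, least at S2. The labels do not say what a shared number stands for, so the pairing rests on these same data. The paired fit tests differences within these pairs, with fewer residual degrees of freedom than the main fit.

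Named genes are the 5 members, the 2 IDs most like each of 3 profiles, and the counts and extremes of a pathway list. Members and lists were chosen with earlier results of these data known.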

Additional observations from a re-analysis of the deposited data

Results flagged for a closer look

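The change from S1 to S5 differed between LJ and blade in each of the 5 members when same-numbered libraries were paired. The difference, LJ minus blade, was 1.50 for RBCS1 (limma with the pair as a block, adjusted p = 0.043), 2.25 for RBCS2 (0.0090), 2.49 for RBCS3 (4.7e-04), 1.52 for RBCS4 (0.015) and 1.54 for RCA (0.0016), against 21.0% of tested genes called higher. For RBCS1 it is by value a smaller fall in LJ, and the RBCS1 fall was not called in either tissue in the main fit. For the others it is a larger rise in LJ. Without the block none passed, and the pairing rests on these same data, as the labels do not explain the numbers.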

How the results depend on the processing

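Counts are of members called out of 5. The share of all tested genes called moved with the setting as well, so a moved count need not be particular to the members. In the change from S1 to S5 between tissues it ran from 9.41% (without LJ S1 replicate 1) to 27.3% (replicate block), against 14.6%. With the replicate block, 13.9% of genes were called lower at S3, 2.59% at S4 and 6.12% at S5. Without it these were 5.77%, 0.473% and 1.56%. With the replicate block (pairs within a stage) 4 were called at S3 (2 without it), 4 at S4 (0), 5 at S5 (1) and 5 in the change from S1 to S5 between tissues (0); at S1, at S2 and in the mean of stages it moved the count by less than 1.5 times, and it was not fitted for steps within a tissue or for LJ against the blade of an earlier stage. With an additive number block, 1 was called from S2 to S3 in blade (0). In fits of the groups compared alone, 0 were called between tissues at S3 (2) and S5 (1), 1 from S2 to S3 in LJ (3), 2 from S3 to S4 in LJ (4), 0 from S4 to S5 in LJ (1), 0 from S3 to S4 in blade (3), 1 in the change between tissues (0) and 0 for LJ S5 against blade S4 (3); fewer samples enter those fits. Quantile normalization called 2 in the change between tissues (0) and 1 for LJ S4 against blade S3 (0). No filter and upper quartile scaling each called 1 for LJ S2 against blade S1 (3). Without both S4 libraries numbered 2, an alternative chosen after seeing the data, 4 were called at S3 (2), 2 from S4 to S5 in LJ (1), 1 from S2 to S3 in blade (0), 1 from S3 to S4 in blade (3), 2 from S4 to S5 in blade (0) and 1 for LJ S4 against blade S3 (0), and the RBCS3 share difference reversed to -0.0499 percentage points, RBCS1 from S3 to S4 in blade to 1.25 and RCA for LJ S4 against blade S3 to -0.023. RCA for LJ S5 against blade S4 reversed to -0.42 with upper quartile scaling. Apart from fewer samples, the cause was not tested.

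Leaving out 1 library at a time gave 0 to 3 calls at S3, 0 to 1 at S4 and at S5, 1 to 3 from S2 to S3 and 2 to 4 from S3 to S4 in LJ, 0 to 3 from S4 to S5 in LJ, 0 to 1 from S2 to S3, 1 to 3 from S3 to S4 and 0 to 1 from S4 to S5 in blade, 0 to 1 in the change between tissues, 1 to 3 for LJ S2 against blade S1, 0 to 1 for LJ S4 against blade S3 and 1 to 3 for LJ S5 against blade S4. Among the limma differences of the members, none of those called with all libraries changed sign. For RBCS1, sign changes came between tissues at S1 (-1.09 to 0.32), S2 (-1.37 to 0.77) and S3 (-0.15 to 1.90), from S1 to S2 in LJ (-0.39 to 1.36) and blade (-0.66 to 1.47), from S2 to S3 in blade (-1.13 to 1.01), from S3 to S4 in LJ (-1.22 to 2.59) and blade (-3.61 to 1.25), from S4 to S5 in blade (-3.83 to 1.03), and for LJ S2 against blade S1 (-0.77 to 0.98), LJ S3 against blade S2 (-0.26 to 1.88), LJ S4 against blade S3 (-0.35 to 3.46) and LJ S5 against blade S4 (-2.71 to 2.15). For RCA they came from S1 to S2 in LJ (-0.028 to 0.89), in blade from S2 to S3 (-0.14 to 1.82) and from S4 to S5 (-0.043 to 2.82), and for LJ S4 against blade S3 (-0.023 to 2.84) and LJ S5 against blade S4 (-1.21 to 1.66). The LJ minus blade difference ran from 6.99 to 11.4 points in the RBCS1 share, -0.853 to 3.76 points in the RBCS3 share, -0.0703 to 0.323 in the log2 ratio of RCA to RBCS and -0.876 to -0.338 points in the RBCS share of the library. Called limma differences of the members kept their call in 330 of 361 values under other alternatives and in 725 of 780 with 1 library left out. The 3 called permutation measures kept it in 15 of 15 and in 57 of 60: the RBCS share of the library lost it without LJ S4 replicate 1 (adjusted p = 0.33) or replicate 2 (0.18) and the RBCS1 share without blade S2 replicate 1 (0.059). The share of all tested genes called between tissues as the mean of stages ran from 35.4% (no filter) to 59.0% (replicate block), against 43.3%. Depth is unknown, so its limit cannot be given.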
